A study of Mus musculus with 4 samples.

Results

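The genes described here encode 10 secreted proteins of the testis and its fluids, listed in the tables as PTGDS, LCN2, CLU, CST3, AGT, APOE, APOC1, SERPINA5, TRF and GSN. All 10 were found among 25824 gene symbols. They were chosen by the difference between the genotypes itself, as secreted proteins with more counts in the sums of Ctcf-cKO mice, so that every genotype difference below is a description and carries no test. The counts come from single cell RNA-seq of isolated spermatogenic cells in ddSEQ droplets, from 2 WT mice and 2 Ctcf-cKO mice with 1 library each, named by their replicate numbers as WT 1, WT 2, Ctcf-cKO 1 and Ctcf-cKO 3. WT mice are Ctcf wt/wt in the labels, whereas the study's methods also allow littermates with floxed alleles and no Cre. Ctcf-cKO mice are Stra8-iCre-Ctcf f/Δ: they carry a deleted and a floxed allele, and Stra8-iCre acts in germ cells around the onset of meiosis, so that somatic cells keep the floxed allele. All mice were on the C56BL/6J background and 15 weeks old per the labels. For Ctcf-cKO testes the filtrates of 2 tubes were pooled. What was asked is in which cells each gene had its counts, and how much of it lay in spermatid barcodes and in barcodes too poor in genes to be a cell.

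The seminiferous tubule holds germ cells and the Sertoli cells that support them. Leydig cells, which make testosterone, lie between the tubules with macrophages, vessels and fibroblasts, and peritubular cells line the tubule wall. Somatic cells secrete carriers of lipids, iron and retinoids, protease inhibitors and chaperones into the tubule fluid and the interstitium. In droplet experiments RNA freed from broken cells can enter any droplet, so that a barcode can hold transcripts its cell did not make.

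Among the lipid-binding members, Ptgds encodes a lipocalin-type prostaglandin D synthase that also carries retinoids, and Lcn2 encodes lipocalin 2, a carrier of iron-loaded siderophores. Apoe and Apoc1 encode apolipoproteins of lipoprotein particles, and Trf encodes transferrin, the iron carrier. Agt encodes angiotensinogen, the precursor of angiotensin, and has the fold of a serpin. Serpina5 encodes protein C inhibitor, a serpin, and Cst3 encodes cystatin C, an inhibitor of cysteine proteases. Clu encodes clusterin, an extracellular chaperone, and Gsn encodes gelsolin, an actin-severing protein with a secreted plasma form. The counts cannot separate the secreted from the cytoplasmic form of gelsolin.

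In the GENCODE annotation of GRCm38 4 of the 10 genes lie on chromosome 2: Ptgds (chr2:25466709-25470046, reverse strand), Lcn2 (chr2:32384633-32388252, reverse), Gsn (chr2:35256380-35307892, forward) and Cst3 (chr2:148871722-148875692, reverse). Apoc1 (chr7:19689481-19692660) and Apoe (chr7:19696109-19699188) are neighbours on the reverse strand of chromosome 7, with 3448 bases between them. The others are Agt (chr8:124556534-124569706, reverse), Trf (chr9:103204001-103230444, reverse), Serpina5 (chr12:104101113-104106137, forward) and Clu (chr14:65968483-65981547, forward). RefSeq start sites on GRCm38.p6 were matched for 7 of the 10 genes, with 11 windows of 300 bases, 250 before and 50 after each start. Gsn and Apoe had 3 windows each.

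The stretches before the start sites of 4 genes are shown because these genes were highest in the same cells, the Leydig-like cells described below. Each is the longest part of the 250 bases before the start that lies outside all annotated exons of the gene, written 5′ to 3′ on the gene's strand, with capitals for TATAAA (the TATA box) and for GGGCGG (the GC box) read on either strand. They are chr2:25469843-25469999 (reverse) for PTGDS, chr2:32387798-32387850 (reverse) for LCN2, chr8:124569707-124569956 (reverse) for AGT and chr12:104100863-104101112 (forward) for SERPINA5. Those of PTGDS and LCN2 lie inside the annotated span of the gene, whose first exon in another transcript starts further upstream.
PTGDS: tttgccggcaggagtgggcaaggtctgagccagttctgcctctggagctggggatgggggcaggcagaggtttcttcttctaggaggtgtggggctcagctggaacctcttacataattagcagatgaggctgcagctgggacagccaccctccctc
LCN2: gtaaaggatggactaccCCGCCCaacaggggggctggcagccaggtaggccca
AGT: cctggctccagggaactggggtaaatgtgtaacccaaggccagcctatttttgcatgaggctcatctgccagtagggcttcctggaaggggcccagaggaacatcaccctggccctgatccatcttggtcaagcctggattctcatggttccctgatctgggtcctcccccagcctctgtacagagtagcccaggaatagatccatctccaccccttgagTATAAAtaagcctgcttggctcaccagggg
SERPINA5: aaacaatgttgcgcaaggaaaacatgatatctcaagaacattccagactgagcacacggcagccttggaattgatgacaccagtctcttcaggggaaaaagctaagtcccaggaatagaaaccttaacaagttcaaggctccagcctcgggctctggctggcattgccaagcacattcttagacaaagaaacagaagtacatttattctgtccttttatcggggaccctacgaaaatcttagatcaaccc

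TATAAA lies 30 bases before the Agt start and the reverse complement of GGGCGG lies 94 bases before the Lcn2 start. Across the whole windows of all RefSeq genes, TATAAA or its complement was in 13.6% of 32851 windows and GGGCGG or its complement in 35.7%. Of the 11 windows of the members 2 held TATAAA, 1 of Agt and 1 of Apoe, and 5 held GGGCGG, the 3 of Gsn and those of Cst3 and Lcn2. AAGGTCA, the letters of an element bound by NR5A1, was in 4.72% of all windows and in none of the 11. A match is a description of letters and does not show that a factor binds there.

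The 4 libraries held 1593546 to 6701235 counts in 24403 barcodes, and both Ctcf-cKO libraries were shallower than both WT libraries. Levels are given as CPM, a gene's counts divided by all counts of the same set of barcodes and scaled to 1000000. They are 3′ counts without length scaling, so that levels are compared between samples and not between genes. The targeted gene, CTCF, had 110 and 49 counts in WT mice and 4 and 7 in Ctcf-cKO mice, or 16.4 and 10.1 against 1.51 and 4.39 CPM. In round spermatid-like cells, as described below, it had 11, 13, 0 and 4 counts in WT 1, WT 2, Ctcf-cKO 1 and Ctcf-cKO 3. These are 9.65, 7.10, 0 and 28.8 CPM, too few counts to order the mice there. Barcodes were called cells at 3 times the plateau count of their library, which gave 96, 241, 228 and 246 cells in the order WT 1, WT 2, Ctcf-cKO 1 and Ctcf-cKO 3. The cells formed 13 clusters, of which 10 were named by marker lists that hold none of the 10 genes. Of all barcode sequences, 2716 of 20198 occur in more than 1 library, and 1 is a cell in 2 libraries. Barcodes within the limits on genes and mitochondrial counts numbered 4227 and 2075 in WT mice and 327 and 293 in Ctcf-cKO mice. The plateau thus lay above 200 genes in both WT libraries and largely below it in both Ctcf-cKO libraries. Between 200 genes and the cell limit there were 4140 and 1841 barcodes in WT mice and 99 and 47 in Ctcf-cKO mice. The part of this in genotype differences under 200 genes was not tested. WT 1 had the fewest barcodes under 200 genes, 1367 with 104983 counts, against 4392 to 6114 with 590328 to 1081040 counts in the other libraries.

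In all barcodes together each of the 10 genes was higher in both Ctcf-cKO mice than in both WT mice, by 4.33-fold for GSN to 27.0-fold for TRF. This ordering was met by 30.4% of all 16602 genes with at least 20 counts, and it is what the genes were chosen by. PTGDS stood at 197 and 102 CPM in WT 1 and WT 2 and at 3848 and 3067 CPM in Ctcf-cKO 1 and 3. The means were 150 ± 67.4 and 3458 ± 552 CPM (SD, n = 2 mice), a ratio of 23.1. The lower Ctcf-cKO mouse was far above the higher WT mouse, as it was for each of the other genes in the plot of CPM by mouse. In sums of this kind, more cells of a type and more RNA per cell cannot be told apart.

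**Figure D1:**
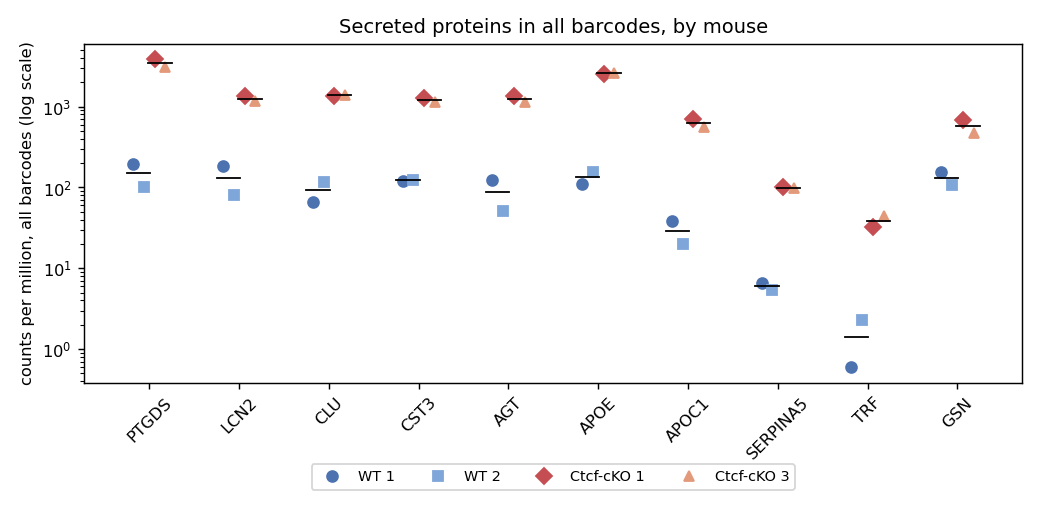
CPM of each gene in all barcodes of a library (log scale), 1 symbol per mouse, with a bar at the mean of each genotype (n = 2). Both Ctcf-cKO mice lie above both WT mice for all 10 genes, with the smallest gap for GSN (156 and 108 against 677 and 468 CPM).

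The iron carriers and lipoproteins showed the same order. LCN2 stood at 182 and 81.5 CPM in WT mice and at 1344 and 1172 CPM in Ctcf-cKO mice. APOE stood at 112 and 156 CPM against 2567 and 2595 CPM, and its neighbour APOC1 at 38.8 and 19.8 against 713 and 559 CPM. In both apolipoproteins the groups lay apart, by 19.3-fold and 21.7-fold. TRF rested on few molecules, with 4 and 11 counts in WT mice and 87 and 71 in Ctcf-cKO mice.

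The serpins and the other members followed. AGT stood at 125 and 51.0 CPM in WT mice and at 1347 and 1127 CPM in Ctcf-cKO mice, and SERPINA5 at 6.57 and 5.35 against 101 and 97.9 CPM. CST3 was nearly the same in the WT mice, 122 and 125 CPM, and stood at 1273 and 1138 CPM in Ctcf-cKO mice. CLU stood at 66.6 and 118 CPM against 1353 and 1401 CPM. Summed over the 10 genes, the level was 1007 and 769 CPM in WT mice and 13255 and 11670 CPM in Ctcf-cKO mice.

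The classes of cells that were captured differed alongside. The 4 somatic-like classes made up 11 of 96 and 7 of 241 cells in WT mice and 143 of 228 and 144 of 246 cells in Ctcf-cKO mice, or 11.5%, 2.90%, 62.7% and 58.5% of the cells. Leydig-like cells numbered 6 and 0 in WT mice and 41 and 55 in Ctcf-cKO mice, and a count of 0 among 241 cells allows a share of up to 1.24%. Sertoli-like cells numbered 2 and 1 against 53 and 43, fibroblast/peritubular-like cells 3 and 2 against 38 and 11, and macrophage-like cells 0 and 4 against 11 and 35. Spermatid-like cells numbered 80 and 221 in WT mice and 69 and 80 in Ctcf-cKO mice. Levels within the somatic-like classes of WT mice therefore rest on very few cells.

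The marker lists of these classes moved with the 10 genes in all barcodes. Leydig markers were higher in both Ctcf-cKO mice for 11 of 12 genes, with a summed level of 98.2 to 268 CPM in WT mice and 2679 to 2836 CPM in Ctcf-cKO mice. Sertoli markers were higher for 13 of 13 measured genes, macrophage markers for 13 of 14, and fibroblast/peritubular markers for 10 of 12 with at least 20 counts. Red cell markers were higher for 4 of 4, at 18.5 to 198 CPM against 1404 to 2139 CPM. Endothelial markers did not move this way: of 6 with at least 20 counts, 1 was higher in both Ctcf-cKO mice and 2 were lower in both. Their summed level was 26.3 and 32.3 CPM in WT mice and 37.3 and 59.0 CPM in Ctcf-cKO mice, with a median log2 ratio of -0.19. Round spermatid markers were higher for 0 of 15 and lower for 14. Of the markers of other cells, neutrophil markers reached at most 5.02 CPM in sum, with 3 of 8 listed in the tables, and epididymis markers at most 22.4 CPM, with 5 of 10 listed. The median log2 ratio of Ctcf-cKO to WT mean CPM (each with 1 added) was 3.87 for the 10 genes, 3.74 for Leydig markers and -0.12 for all 16602 genes.

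The source among cells was read from sums per mouse and class, in which only classes with at least 5 cells are ranked. The 10 genes took no part in the choice of variable genes for clustering. AGT was the gene with the largest fold in the main Leydig-like cluster, followed by INSL3, a hormone of Leydig cells. The classes are described and not tested against each other.

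**Figure D2:**
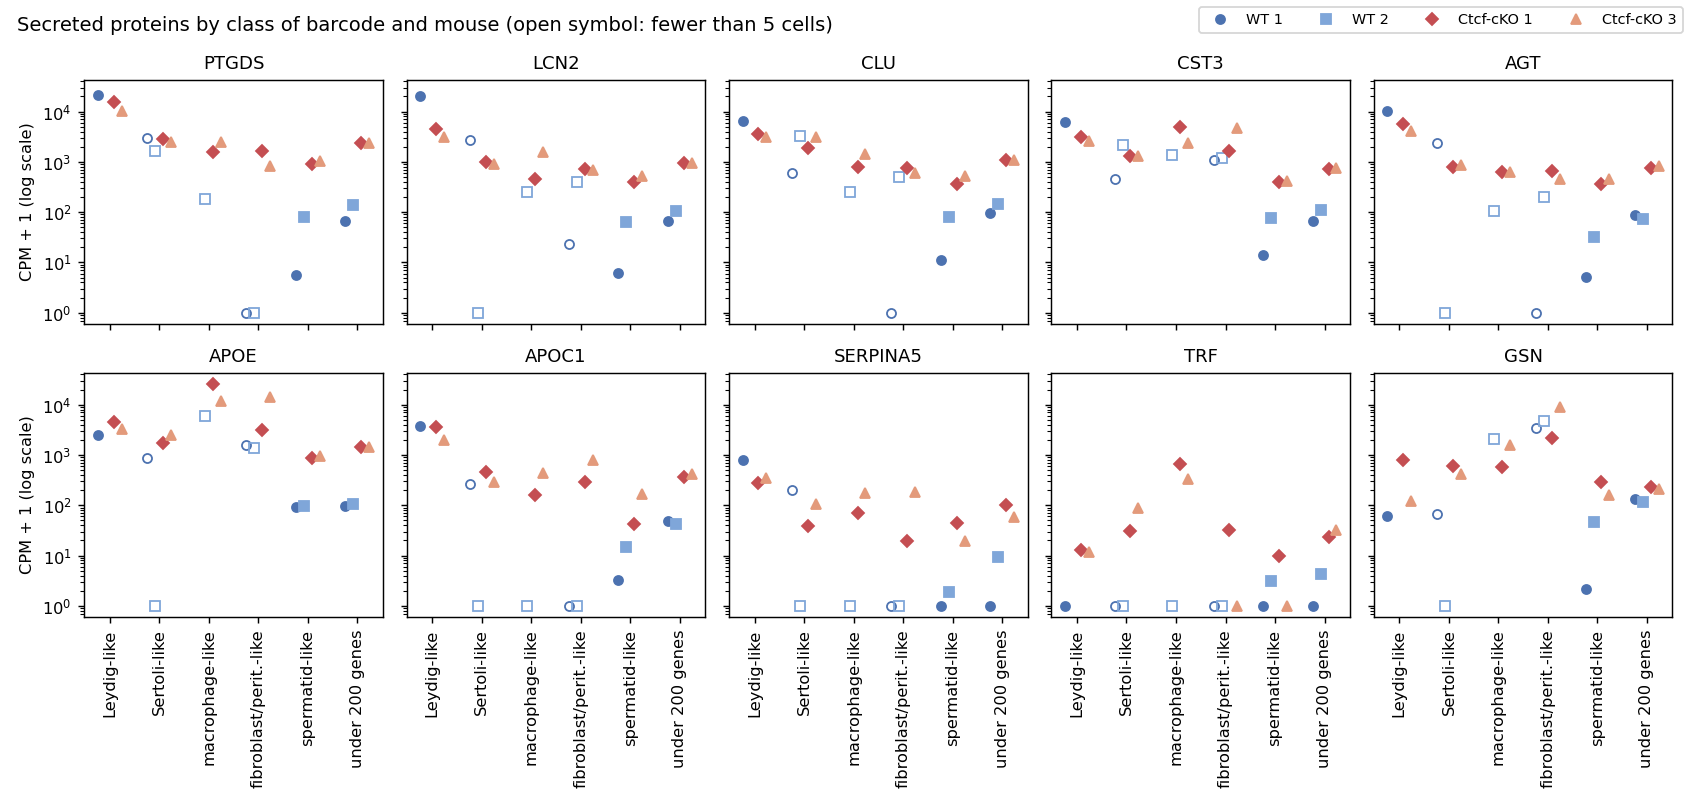
CPM plus 1 (log scale) of each gene in the cells of each somatic-like class, in spermatid-like cells and in barcodes under 200 genes, 1 symbol per mouse, open where a mouse had fewer than 5 cells of the class. Leydig-like cells are highest for PTGDS, LCN2, AGT, APOC1 and SERPINA5 in each mouse that has at least 5 of them, and macrophage-like or fibroblast/peritubular-like cells for APOE, TRF and GSN in both Ctcf-cKO mice. In WT 1 no other somatic-like class has at least 5 cells.

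Leydig-like cells held the highest level of PTGDS, LCN2, CLU, AGT, APOC1 and SERPINA5 in WT 1, Ctcf-cKO 1 and Ctcf-cKO 3, the 3 mice in which at least 5 such cells were found. In WT 1 only Leydig-like, round spermatid-like and elongating spermatid-like cells were ranked. No other somatic-like class could be highest there, so the ranking among somatic-like classes rests on the Ctcf-cKO mice. PTGDS stood at 21500 CPM in the 6 Leydig-like cells of WT 1 and at 15656 and 10386 CPM in those of the Ctcf-cKO mice. In Ctcf-cKO 1 this was 17.5 times its level in spermatid-like cells, and in Ctcf-cKO 3 it was 9.79 times. Every Leydig-like cell had a PTGDS count. LCN2 stood at 20237, 4564 and 3123 CPM in the same order of mice, and 6 of 6, 38 of 41 and 47 of 55 cells had a count. Its level in WT 1 was above both Ctcf-cKO mice. AGT stood at 10309, 5763 and 4109 CPM, and APOC1 at 3818, 3554 and 2015 CPM. SERPINA5, with 27, 94 and 66 counts in these cells, stood at 793, 282 and 350 CPM.

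Within Leydig-like cells the genotype order of the sums was not present. For PTGDS, LCN2, CLU, CST3, AGT, APOC1 and SERPINA5 the single WT mouse with such cells was above both Ctcf-cKO mice, and summed over the 10 genes it stood at 71989 CPM against 41850 and 29293 CPM. APOE and GSN went the other way, with 2497 CPM against 4516 and 3356 for APOE and 58.7 against 779 and 122 for GSN. TRF had 0, 4 and 2 counts. CYP17A1, the steroidogenic enzyme that marks Leydig cells, was also highest in WT 1, at 5316 against 3830 and 2974 CPM. PRM1, a protamine transcript of spermatids, stood at 1733 CPM in the Leydig-like cells of WT 1 and at 20775 and 34139 CPM in those of the Ctcf-cKO mice. The part of either in these differences was not tested, and with 6 cells of 1 mouse on the WT side they have no replicate.

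CLU was high in Leydig-like and in Sertoli-like cells. In Ctcf-cKO 3 the levels were nearly equal, 3186 and 3103 CPM, and in Ctcf-cKO 1 they were 3650 and 1850 CPM. Sertoli-like cells were named by 12 Sertoli markers, although HBB-BS, a globin transcript of red cells, was also among their leading genes. PTGDS in Sertoli-like cells stood at 2883 and 2458 CPM in Ctcf-cKO mice, against 2424 and 2385 CPM in barcodes under 200 genes of the same mice. CLU stood under 200 genes at 1069 and 1097 CPM, below its level in Sertoli-like cells in both.

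Macrophage-like cells carried the lipid and iron transport genes APOE and TRF. APOE stood at 25906 and 11585 CPM in those of Ctcf-cKO 1 and 3 and at 6005 CPM in the 4 cells of WT 2. In Ctcf-cKO 1, 5 macrophage-like cells held 80.8% of these APOE counts, and the largest had 450. In Ctcf-cKO 3 fibroblast/peritubular-like cells were above its macrophage-like cells, at 14315 CPM. In Ctcf-cKO 1 Leydig-like cells came second, at 4516 CPM, and fibroblast/peritubular-like cells stood at 3082 CPM. TRF stood at 655 and 325 CPM in macrophage-like cells and at most at 88.4 CPM in any other class of Ctcf-cKO mice with at least 5 cells. Those TRF levels are 38 and 34 counts, or 43.7% and 47.9% of all TRF counts in the libraries.

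APOC1 did not follow its neighbour APOE. In Leydig-like cells of Ctcf-cKO 1 there were 0.787 APOC1 counts per APOE count (95% exact interval 0.729 to 0.850), and in macrophage-like cells 0.00599 (0.00273 to 0.0114). In Ctcf-cKO 3 the ratios were 0.600 and 0.0380. Intervals cover counting error only. They are too narrow where a molecule was counted several times, since 23.1% of the nonzero values of Ctcf-cKO 3 equal 4 and 2.86% equal 5.

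CST3 had no single source in Ctcf-cKO mice. Its highest class was macrophage-like in Ctcf-cKO 1 (5036 CPM) and fibroblast/peritubular-like in Ctcf-cKO 3 (4648 CPM). In WT 1 it was highest in Leydig-like cells (6197 CPM), the only somatic-like class ranked there. GSN was highest in fibroblast/peritubular-like cells of both Ctcf-cKO mice, at 2198 and 8970 CPM, and stood at 3443 and 4650 CPM in the 3 and 2 such cells of WT mice. The WT and Ctcf-cKO values of GSN overlapped in that class. In Leydig-like cells GSN was at 58.7 to 779 CPM.

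Genes with the most similar pattern were sought over 20 sums per mouse and class, by the Pearson correlation of log2(CPM + 1) among 7190 genes, as a description across sums that share libraries and depth. PTGDS was most like AGT (r = 0.98), ALDH1A1 (0.98) and FABP3 (0.98). LCN2 was most like GSTM2, PTGDS and AGT, CLU like FABP3, ALDH1A1 and AGT, and AGT like FABP3, PTGDS and LCN2. APOC1 was most like GSTM1, VCAM1 and FABP3, and SERPINA5 like GSTA4, PLD3 and ACAA2. For these 6 genes r was 0.90 to 0.99. CST3 was most like FTH1, CTSD and ALDH2, the first an iron store and the second a lysosomal protease. APOE was most like GPX1, TLE5 and TUBB5. TRF was most like H2-EB1, CD74 and PF4, the first 2 being genes of antigen presentation, and GSN like ENTPD2, DCN and MGP, the last 2 being matrix proteins. Among the members themselves r ranged from 0.31 (APOC1 and TRF) to 0.98 (PTGDS and AGT).

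The counts of each gene were divided among the classes of barcodes. In Ctcf-cKO 1 and 3, Leydig-like cells held 51.2% and 40.1% of the PTGDS counts and 53.8% and 43.2% of the AGT counts, against 12.6% and 11.8% of the counts of all genes. Barcodes under 200 genes held 25.7% and 36.5% of PTGDS, and spermatid-like cells 3.99% and 6.91%. Over the 10 genes, 29.6% and 36.6% of the counts lay outside cells in Ctcf-cKO mice and 53.0% and 52.9% in WT mice. For all genes these shares were 43.8% and 49.1% in Ctcf-cKO mice and 71.0% and 45.9% in WT mice. The 10 genes thus lay in cells more often than all genes did, except in WT 2.

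**Figure D3:**
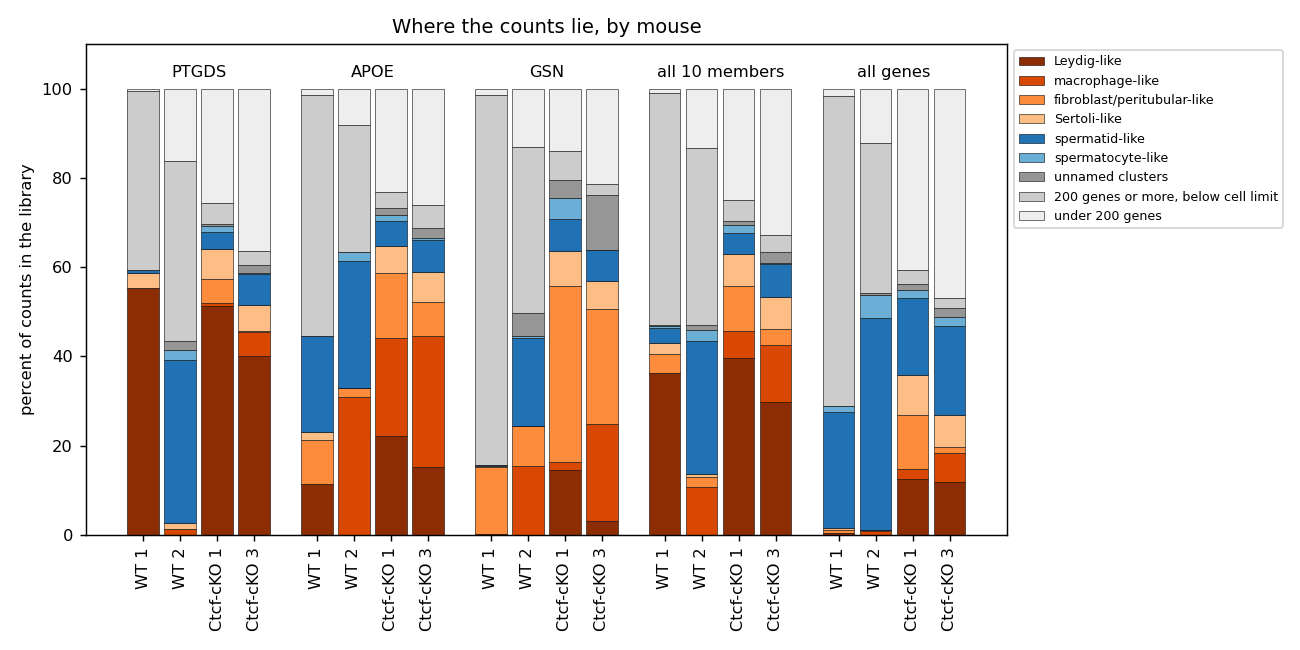
Percent of the counts of PTGDS, APOE, GSN, the 10 genes together and all genes that lay in each class of barcode, 1 stacked bar per mouse, each summing to 100. Leydig-like cells hold 36.3%, 39.7% and 29.7% of the counts of the 10 genes in WT 1, Ctcf-cKO 1 and Ctcf-cKO 3, and none in WT 2. In WT 2 spermatid-like cells hold 29.8% of them, against 47.5% of the counts of all genes.

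WT 2 differed from the other mice in where these genes lay. It had no Leydig-like cell. Of its 496 PTGDS counts 36.5% lay in spermatid-like cells, against 47.5% of the counts of all genes. Barcodes between 200 genes and the cell limit held 40.1% of PTGDS, against 33.7% for all genes. Those under 200 genes held 16.3%, against 12.1%. In WT 1 the 6 Leydig-like cells held 55.3% of 1323 PTGDS counts. CYP17A1 had 11 counts in the whole library of WT 2, or 0.0222 per PTGDS count (0.0110 to 0.0400). The ratio was 0.292, 0.224 and 0.230 in WT 1, Ctcf-cKO 1 and Ctcf-cKO 3. This pair was chosen after its values were seen.

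In spermatid-like cells 9 of the 10 genes were higher in both Ctcf-cKO mice than in both WT mice, against 17.8% of all 10258 genes with at least 20 counts there. This is the contrast the genes were chosen by, in part of the same barcodes. TRF was the exception, with 0 and 5 counts in WT mice and 4 and 0 in Ctcf-cKO mice. PTGDS stood at 4.59 and 78.4 CPM in WT 1 and WT 2 and at 895 and 1061 CPM in Ctcf-cKO 1 and 3. The SD of the WT mice was 52.2 CPM around a mean of 41.5, and that of the Ctcf-cKO mice 117 CPM around a mean of 978. LCN2 stood at 5.17 and 63.7 CPM against 400 and 524 CPM, CLU at 10.3 and 78.0 against 361 and 518 CPM, and AGT at 4.02 and 31.6 against 359 and 446 CPM. CST3, GSN and APOC1 showed the same order, and SERPINA5 rested on 0 and 2 counts in WT mice and 20 and 6 in Ctcf-cKO mice. Summed over the 10 genes the log2 ratio of mean CPM was 3.69, and it was 3.04 without WT 1 and 4.89 without WT 2. Without the batch correction of the clustering it was 2.36, and 7 genes had this order.

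The share of spermatid-like cells with a PTGDS count was 3 of 80 and 68 of 221 in WT mice, or 3.75% (95% exact interval 0.780 to 10.6) and 30.8% (24.8 to 37.3), and 53 of 69 and 55 of 80 in Ctcf-cKO mice, or 76.8% (65.1 to 86.1) and 68.8% (57.4 to 78.7). These cells had median depths of 18142, 8149, 3337 and 1780.5 counts, so that both Ctcf-cKO mice had a higher share at a lower depth than both WT mice. Leydig-like cells, which carry the gene, had a count in all cells at median depths of 4569, 7594 and 3141 counts. At an equal depth of 200 counts per barcode, the expected share of spermatid-like cells with a PTGDS count was 0.133% and 1.97% in WT mice and 23.4% and 26.8% in Ctcf-cKO mice. Barcodes under 200 genes with at least 200 counts gave 2.43% and 1.91% in WT mice and 19.5% and 19.3% in Ctcf-cKO mice at the same depth, from 72, 1224, 2818 and 1594 barcodes. In WT 2 and both Ctcf-cKO mice the shares in spermatid-like cells were thus at or above those in barcodes under 200 genes, but since CPM were lower in spermatid-like cells in WT 2 and both Ctcf-cKO mice, no order is read from these shares. In Leydig-like cells they were 97.4%, 78.5% and 69.3%.

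PTGDS was spread over many spermatid-like cells. In Ctcf-cKO 1 and 3 the 5 richest cells held 26.0% and 26.9% of its counts, and no cell had more than 32. For comparison, a single Leydig-like cell of Ctcf-cKO 1 had 759. Any of the 10 genes was counted in 56 of 80, 181 of 221, 65 of 69 and 70 of 80 spermatid-like cells. In both genotypes most spermatid-like cells therefore held at least 1 count of these genes, at depths that were higher in WT mice. At an equal depth of 200 counts per barcode the genotypes lay apart. The expected share with any of the 10 genes was 3.33% and 11.4% in WT mice and 57.3% and 65.5% in Ctcf-cKO mice.

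Levels in spermatid-like cells were below those in barcodes under 200 genes of the same mouse for nearly all genes. Summed over the 10 genes, the ratio was 0.203, 0.573, 0.452 and 0.521 in WT 1, WT 2, Ctcf-cKO 1 and Ctcf-cKO 3. Among genes with more than 3 counts in both sets, all 7, all 8, 9 of 10 and all 9 were below 1. The exception was GSN in Ctcf-cKO 1, at 286 CPM in spermatid-like cells and 232 CPM under 200 genes. In WT 1 the comparison rests on 69 counts under 200 genes. Against all barcodes below the cell limit, which in WT 1 held 3579 counts of the 10 genes, the summed ratio was 0.177, 0.543, 0.409 and 0.489.

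**Figure D4:**
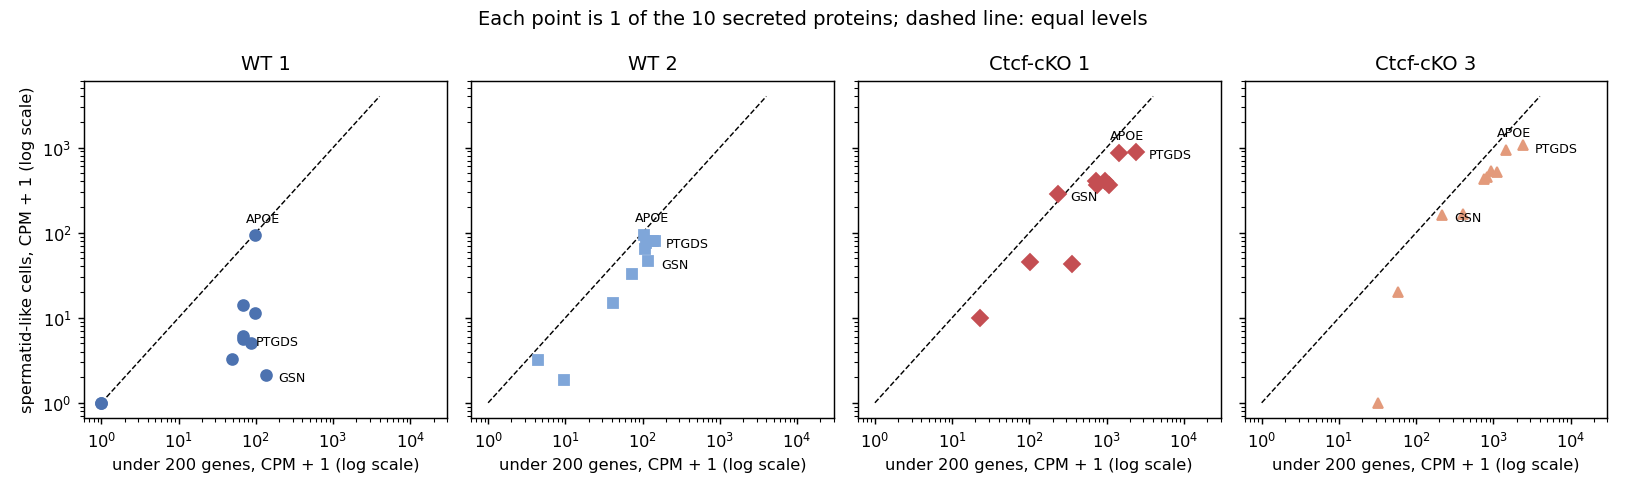
CPM plus 1 of each gene in spermatid-like cells (vertical, log scale) against barcodes under 200 genes (horizontal, log scale), 1 panel per mouse, with a dashed line at equal levels. Nearly all genes lie below the line, and APOE lies next to it in both WT mice (92.4 against 95.3 and 93.6 against 103 CPM).

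APOE stood apart in the spermatid-like cells of WT 1, at 92.4 CPM where the other genes were at 13.2 CPM or less. In WT 2 it was highest at 93.6 CPM but close to other genes. PTGDS stood there at 78.4 CPM, CLU at 78.0 CPM and CST3 at 74.5 CPM. In WT 1, 41 of 80 spermatid-like cells (51.3%, 39.8 to 62.6) had an APOE count, and the 5 richest held 24.8% of 161 counts. It was counted in round and in elongating spermatid-like cells, at 58.8 and 156 CPM in WT 1 and at 84.1 and 130 CPM in WT 2. APOC1 had 4 counts in these cells of WT 1, or 0.0248 per APOE count (0.00669 to 0.0649), against 0.289 (0.233 to 0.356) in the barcodes between 200 genes and the cell limit. In WT 2 the ratio was 0.148 (0.0989 to 0.215) in spermatid-like cells, 0.172 (0.118 to 0.245) in the barcodes between and 0.393 (0.235 to 0.640) under 200 genes. The first interval overlapped the second and lay below the third. In Ctcf-cKO mice APOE stood at 860 and 942 CPM in spermatid-like cells, and the APOC1 ratio there was 0.0486 (0.0289 to 0.0769) and 0.177 (0.129 to 0.237). It was 0.255 (0.190 to 0.338) and 0.190 (0.132 to 0.267) in the barcodes between, and 0.246 (0.219 to 0.275) and 0.283 (0.249 to 0.322) under 200 genes. In Ctcf-cKO 1 the interval of spermatid-like cells lay below both others, and in Ctcf-cKO 3 it overlapped that of the barcodes between. All these intervals cover counting error only and are too narrow where a molecule was counted several times. The 14 macrophage markers summed to 1154 and 983 CPM in the spermatid-like cells of WT 1 and WT 2, of which LYZ2 and C1QA had 0 counts in WT 1. In all barcodes of WT 1 these markers summed to less, 765 CPM. LYZ2 had 2 counts there, C1QA and C1QC had 0, and C1QB had 85. The other markers of the list are not given here. That mouse had 0 macrophage-like cells among 96 cells, which allows a share of up to 3.125%. Barcodes between 200 genes and the cell limit held 69.5% of its counts, so that macrophage RNA outside called cells is not excluded. Neither the number of such cells nor the summed level of the list by itself measures macrophage RNA. The part of these markers in the APOE level was not tested.

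Barcodes under 200 genes held all of these genes in both Ctcf-cKO mice. All 10 were higher there in both Ctcf-cKO mice than in both WT mice, against 26.0% of all 10108 genes with at least 20 counts in these barcodes, again as the genes were chosen. PTGDS stood at 66.7 and 137 CPM in WT mice and at 2424 and 2385 CPM in Ctcf-cKO mice, APOE at 95.3 and 103 against 1462 and 1444 CPM, and LCN2 at 66.7 and 105 against 961 and 937 CPM. The Ctcf-cKO mice were close to each other. GSN differed least, at 133 and 117 against 232 and 213 CPM, a ratio of 1.78. SERPINA5 and TRF had 0 counts in the 104983 counts of WT 1, and 5 and 2 in WT 2. Any of the 10 genes was counted in 2.27% and 5.42% of these barcodes in WT mice and in 35.7% and 25.6% in Ctcf-cKO mice, at median depths of 53, 52, 201.5 and 110 counts.

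Markers of the somatic classes were in the same barcodes. Leydig markers summed to 95.3 and 127 CPM under 200 genes in WT mice and to 1912 and 1938 CPM in Ctcf-cKO mice, and in spermatid-like cells to 52.8 and 75.8 against 612 and 738 CPM. CYP17A1 had 66 and 44 counts in spermatid-like cells of Ctcf-cKO mice and 1 and 1 in those of WT mice. HBB-BS had 599 and 215 counts against 2 and 3. Sertoli markers summed to 58.0 and 240 against 902 and 935 CPM in spermatid-like cells, and fibroblast/peritubular markers to 10.3 and 109 against 440 and 245 CPM. The summed level of macrophage markers was 1154 and 983 against 1175 and 1303 CPM, while 8 of 12 with at least 20 counts were higher in both Ctcf-cKO mice, with a median log2 ratio of 2.58. The part of RNA outside cells in the levels of spermatid-like cells was not tested.

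The counts of LCN2 per count of PTGDS were compared across the barcodes of a mouse. In all barcodes the ratio was 0.922 (0.852 to 0.998) and 0.798 (0.698 to 0.913) in WT mice and 0.349 (0.336 to 0.363) and 0.382 (0.362 to 0.403) in Ctcf-cKO mice. In Leydig-like cells it was 0.941, 0.292 and 0.301 in WT 1, Ctcf-cKO 1 and Ctcf-cKO 3. In spermatid-like cells it was 0.812, 0.447 and 0.494 in WT 2, Ctcf-cKO 1 and Ctcf-cKO 3, and under 200 genes 0.765, 0.397 and 0.393. Each of these WT values lay above each of these Ctcf-cKO values. In macrophage-like cells of Ctcf-cKO 3 it was higher, 0.640 (0.524 to 0.780), and in 11 fibroblast/peritubular-like cells of that mouse it was 0.833 (0.391 to 1.75). In both Ctcf-cKO mice the interval of spermatid-like cells lay above that of Leydig-like cells. Since the genes were chosen by genotype, these ratios carry no test.

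Cells and barcodes under 200 genes were compared within mice, a contrast the choice of the genes did not use. In edgeR's quasi-likelihood test with mouse as a block, 2 genes (0.0232% of 8638) were called higher in cells and 12 (0.139%) lower at a Benjamini-Hochberg adjusted p under 0.05. None of the 10 genes was called, and 4 (PTGDS, CST3, APOE and GSN) had an unadjusted p under 0.05 in edgeR. Of all 8638 genes tested, 655 had an unadjusted p under 0.05. All 10 log2 fold changes were positive, with a median of 0.68 against 0.10 for all genes. APOE had a log2 fold change of 1.16 ± 0.28 (SE) with an adjusted p of 0.124 in edgeR, and was higher in cells in 4 of 4 mice. CST3 had 0.92 ± 0.29 (adjusted p = 0.317 in edgeR) and was also higher in 4 of 4. PTGDS had 0.80 ± 0.38, with 404, 82.1, 4779 and 3648 CPM in cells against 66.7, 137, 2424 and 2385 CPM under 200 genes, and was higher in 3 of 4 mice, all but WT 2. GSN was higher in cells in both Ctcf-cKO mice and lower in both WT mice, where barcodes under 200 genes held only 14 and 69 GSN counts. DESeq2 on the same sums called 1 member, APOE, and edgeR without WT 1 called 3 (APOE, CST3 and GSN) among 183 genes.

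Of 44 other secreted proteins listed for comparison, 43 were in the tables and 39 had at least 20 counts. In all barcodes 33 of the 39 were higher in both Ctcf-cKO mice and 2 were lower in both, and their median log2 ratio was 2.38. The largest ratios were those of TIMP3, an inhibitor of metalloproteases (0.831 against 32.2 mean CPM, a ratio of 38.7), PF4, a platelet chemokine (35.5) and IGF2, a growth factor (27.2). The smallest were those of IGFBP5, which had 4 counts in WT 2 and 0 elsewhere, A2M, a protease inhibitor (5.83 against 0.565 mean CPM), and SPP1, osteopontin (3.74 against 0.941). Of 25 of these genes tested between cells and barcodes under 200 genes, 24 were higher in cells and 1, MGP, was called by edgeR. MGP, a matrix protein, had a log2 fold change of 1.66 ± 0.34 (adjusted p = 0.0336 in edgeR).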

How the data were processed

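Single cell libraries of 2 WT and 2 Ctcf-cKO mice were read as 1 table each. The counts that the authors deposited are unnormalized whole numbers for every gene symbol in every barcode, and the build in the submitters' processing notes is GRCm38. How reads of 1 molecule were merged is not given in the sources used here. Barcodes with 200 to 7000 genes, at most 10% mitochondrial counts and at least 3 times the plateau count (the median of ranks 301 to 1000) were called cells. Normalized counts of 2000 variable genes without the members, 15 principal components, a Harmony correction written anew and clustering at a resolution of 0.9 (scanpy 1.11.5) gave clusters, named by at least 3 markers, more than of any other list. Clusters under 20 cells also needed a leading marker, a rule set after seeing the data. Doublets were called by Scrublet and removed only in an alternative. Counts were summed per mouse and class. Cells were tested against barcodes under 200 genes in edgeR 4.0.16 (TMM, filterByExpr, quasi-likelihood F test, mouse as a block), which was tested on simulated data. A standard error is the log2 fold change over the square root of F. DESeq2 1.42.0 was an alternative. Exact binomial intervals at 95% came from scipy 1.17.1. The depth was 1593546 to 6701235 counts per library, and 2 mice per genotype limit the precision.

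The members and lists were chosen with earlier results of these data known. All 10 members are described, and the 3 most similar genes of each were named, among genes with at least 100 counts in cells. Of the other secreted proteins the 3 largest and 3 smallest ratios were named. Counts divided by 4, all barcodes below the cell limit as the empty set, shared barcodes left out, and Scrublet doublets left out of the cell test were alternatives added after seeing the data. Gene positions came from GENCODE M21 and start sites from RefSeq. No protein sequence was used here.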

Additional observations from a re-analysis of the deposited data

Results flagged for a closer look

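GSN was lower in cells than in barcodes under 200 genes in both WT mice, 84.0 against 133 CPM and 99.6 against 117 CPM, and higher in both Ctcf-cKO mice, 958 against 232 CPM and 700 against 213 CPM. Over the 4 mice edgeR gave a log2 fold change of 0.998 ± 0.337 (SE) with an adjusted p of 0.415, so the gene was not called. It is listed because every mouse of a genotype moved one way and every mouse of the other moved the opposite way. The WT side rests on few molecules. Under 200 genes GSN had 14 counts in 4 barcodes of WT 1 and 69 counts in 30 barcodes of WT 2, so that its direction in WT mice is uncertain. The difference between the genotypes was not tested. Fibroblast/peritubular-like cells, where GSN was highest in Ctcf-cKO mice, numbered 3 and 2 in WT mice and 38 and 11 in Ctcf-cKO mice, and their part in this was not tested.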

How the results depend on the processing

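The members higher in both Ctcf-cKO mice numbered 10 in all barcodes and 10 under 200 genes in every alternative run, and 7 to 10 in spermatid-like cells, with 7 where no batch correction was made. Every log2 ratio of a member that could be computed was above 0. TRF and SERPINA5 gave none where a genotype had no count, as both did under 200 genes and in spermatid-like cells without WT 2, and TRF in spermatid-like cells without Ctcf-cKO 1. In spermatid-like cells there was also no TRF ratio with a cell limit of 2 times the plateau, with Scrublet doublets left out or without batch correction. The summed log2 ratio of 3.44 under 200 genes was 3.77 with TMM scaling, and that of 3.69 in spermatid-like cells was 2.36 without batch correction and 3.04 to 4.89 with each mouse left out, the highest without WT 2. The median ratio of spermatid-like cells to barcodes under 200 genes, 0.487, was 0.230 with a cell limit of 2 times the plateau and 0.242 without batch correction, and the cause was not tested. Between cells and barcodes under 200 genes, members called numbered 1 with DESeq2 (APOE, adjusted p = 0.0081), 1 with library totals alone, and 0 to 3 with a mouse left out. APOE's adjusted p ranged from 1.5e-07 without WT 1 to 1. All genes called, 14, became 26 without a filter, 0 with at least 10 counts in every sum, 0 without the mouse block, 33 after dividing counts by 4, and 3 to 183 with a mouse left out, the highest without WT 1. SERPINA5 turned to -0.27 without Ctcf-cKO 3 and was 0.28 to 0.64 without another mouse. No paired analysis of genotypes was possible because WT and Ctcf-cKO mice share fewer than 2 replicate numbers. Depth limits SERPINA5 and TRF, with 0 to 5 counts in most WT sets, and 6 Leydig-like cells of 1 WT mouse limit every level within that class.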

Other observations

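GSN in WT 1 lay mostly in barcodes between 200 genes and the cell limit, which held 83.1% of its 1047 counts, against 69.5% of the counts of all genes, while its 80 spermatid-like cells held 2 counts. HBB-BS, a globin transcript of red cells, lay there too, with 870 of its 877 counts in WT 1. The 5 spermatocyte-like cells of Ctcf-cKO 1 held the second highest AGT level of that mouse, 1798 CPM, with LCN2 at 1063 CPM and CYP17A1 at 657 CPM. The 8 spermatocyte-like cells of Ctcf-cKO 3 had 3 AGT counts and 0 of CYP17A1, so the mice differed, and no test was made with this few cells.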
